A study of Mus musculus with 28 samples.

Results

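Neurotransmitter is released when a synaptic vesicle fuses with the membrane of an axon terminal. The 36 genes described here encode parts of that machinery: proteins that cluster vesicles, sit in their membrane, sense calcium, drive fusion, or hold vesicles at the active zone, the patch of membrane where release occurs. They were taken by symbol from a table of 49341 genes, and all 36 were found. All 36 were among the 24911 genes that passed the filter on low values. RNA was measured in layers of the hippocampus captured by laser from 3 male Amigo2-EGFP mice on the C57BL/6J strain, aged 6 to 8 weeks and from separate litters. These reporter mice carry a green fluorescent protein under the control of Amigo2, a gene expressed strongly in CA2. No group was treated. The 8 groups were a dendritic and a cell body layer from each of 4 subregions, which were the dentate gyrus (DG) and the fields CA1, CA2 and CA3. Each group had 1 library from each of mice 492, 496 and 502.

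In the CA fields the dendritic tissue was stratum radiatum and the cell bodies came from stratum pyramidale. In DG the molecular layer gave the dendritic tissue, and granule cells gave the cell bodies. Tissue for a library was pooled from sections of 1 animal. Dendritic libraries were made from 1 ng of RNA and cell body libraries from 5 ng, so input amount and layer cannot be told apart. As background, the RNA of vesicle proteins is made in the neuronal nucleus, and the proteins act mainly in axon terminals. A dendritic layer holds terminals of neurons whose cell bodies lie elsewhere, as well as interneurons, glia and vessels. The mossy fibres of DG granule cells end in CA3 on the dendrites nearest to the cell bodies, and CA3 axons end in the stratum radiatum of CA3, CA2 and CA1.

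Values are log2 normalized counts, so a difference of 1 is a doubling. Means are over 3 mice, standard errors (SE) are those of limma fitted across all tested genes with mouse as a block, and p-values are limma's, adjusted by the Benjamini-Hochberg method over all 24911 genes. A gene was called higher or lower at an adjusted p below 0.05. A log2 difference is the first-named group minus the second.

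A marker named for each subregion was highest in the cell bodies labelled with it. Prox1, which defines granule cells, averaged 15.01 in DG, Wfs1 averaged 14.76 in CA1, Rgs14 averaged 14.56 in CA2 and Bok averaged 11.82 in CA3. Of the fuller lists, 2 of 7 CA3 markers were called higher in CA3 than in CA2 cell bodies and 5 did not pass. All 7 CA2 markers were called lower in CA3 there. Normalized totals were 37 to 98.7 M in dendritic libraries and 29.3 to 55.5 M in cell body libraries. RNA of the mitochondrial genome took 29.5% to 46.9% of dendritic totals and 4.21% to 9.08% of cell body totals, and the 36 genes took 0.759% to 1.5% of dendritic totals and 1.56% to 3.23% of cell body totals. The CA1 dendritic libraries of mice 492 and 496 stood apart, with medians over tested genes of 7.56 and 7.54 where the other dendritic libraries had 6.86 to 7.32. Another 4 dendritic libraries, titled as CA2 and DG of mice 492 and 502, were labelled as repeats and had no column of their own. Their labels conflict: the CA2 repeat titled 492 carries the animal label 502, and the DG repeat titled 502 carries the animal label 492. The sources do not say whether the columns of those animals hold the first or the repeated library. Results without the CA2 and DG dendritic columns of these animals are named where they differ.

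**Figure D1:**
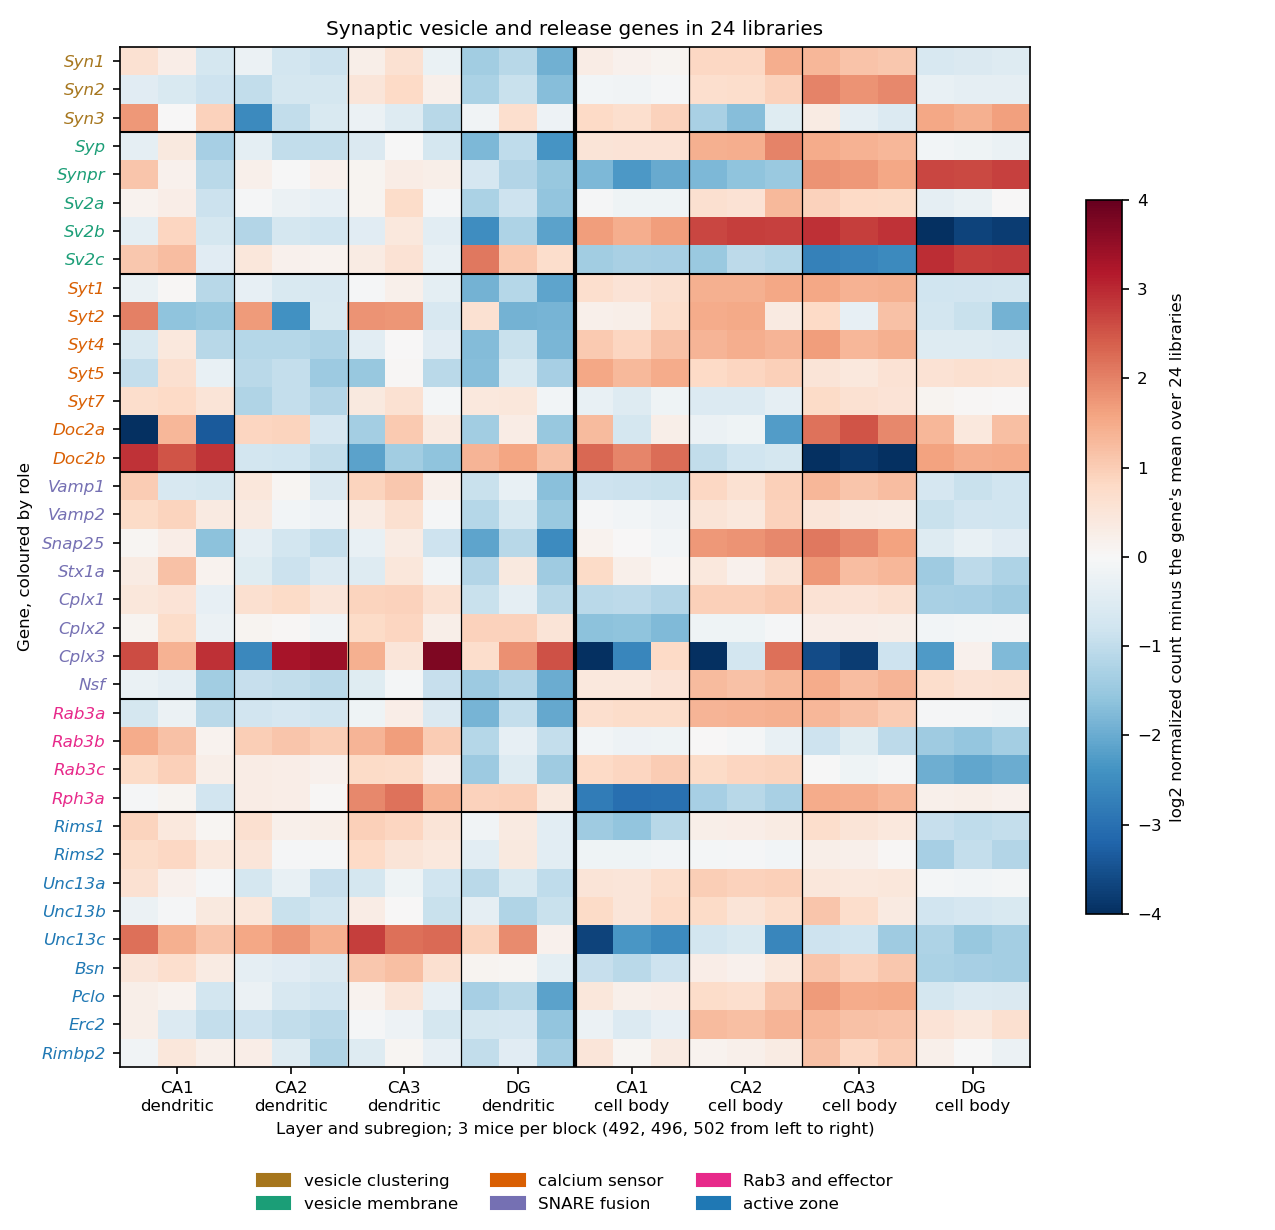
Each cell is the log2 normalized count of 1 gene in 1 library minus that gene's mean over the 24 libraries (colour scale from -4 to 4, values beyond it shown at its ends). Genes run down by role, and each block of 3 columns is 1 layer of 1 subregion with mice 492, 496 and 502. Doc2b is dark blue in the CA3 cell body layer, Sv2b in the DG cell body layer, and Unc13c is redder in the dendritic than in the cell body blocks.

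Averaged over the 4 subregions, 18 of the 36 genes were lower in dendritic layers than in cell body layers, 11 were higher and 7 did not pass the test. That is 80.6% called, where 45.2% of all tested genes were called. Shares of all genes, here and below, were not matched for expression level. Most of the 36 genes lay above the library medians of tested genes. The median difference was -0.47 for the 36 genes and -0.2 for all genes. Fewer neurons in the captured tissue and less RNA per neuron cannot be told apart in these bulk samples. With libraries scaled to their totals, which moved the median of all genes to -0.63, the split was 7 higher and 25 lower. Genes of other cell types moved with the layer. All 12 of the astrocyte markers were higher in dendritic layers, with a summed level of 491 to 1010 in dendritic and 59.3 to 159 in cell body layers (sums here are in units of 1000 normalized counts). Interneuron markers were higher for 15 of 18 and lower for 1, with sums of 51 to 194 in dendritic and 30.3 to 80.2 in cell body layers. Of 6 general neuronal markers, 1 was higher and 5 were lower, with a median difference of -0.89. Their sums went the other way, at 144 to 443 in dendritic and 70.9 to 187 in cell body layers. The part of all these markers in the results was not tested.

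Fusion itself needs the SNARE proteins, Snap25, Stx1a and the vesicle protein Vamp2, which zip together across the gap between membranes, and Nsf, the ATPase that takes them apart again. Nsf ranged over 12 dendritic libraries from 12.84 to 14.77 (median 13.87) and over 12 cell body libraries from 15.25 to 16.33 (median 15.77). No dendritic library reached the lowest cell body library. Nsf was lower in dendritic layers by -1.85 ± 0.103 (SE, adjusted p = 1.59e-13, limma). Snap25 was lower by -1.64 ± 0.151 (adjusted p = 1.23e-08, limma), but its layers overlapped, at 14.05 to 16.9 in dendritic libraries and 16.04 to 18.67 in cell body libraries. Stx1a was lower by a smaller amount, -0.45 ± 0.176, and in 2 of 3 mice. Its means were lower in dendrites than in cell bodies of CA3 (10.26 and 11.76) and CA2 (9.68 and 10.68). They were higher in CA1 (10.87 and 10.65) and DG (9.59 and 9.08). Vamp2 gave -0.04 ± 0.0937 and did not pass. It averaged 16.03 in CA1 dendrites and 15.24 in CA1 cell bodies, but 15.37 and 15.98 in CA2. CA3 had 15.66 and 15.74, and DG 14.28 and 14.54.

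Complexins are small proteins that bind the assembled SNAREs and hold them ready for calcium. All 3 complexins were higher in dendritic layers, by 0.44 ± 0.0882 for Cplx1, 0.81 ± 0.0777 for Cplx2 and 3.63 ± 0.647 for Cplx3 (limma, adjusted p at most 0.000201). The direction of Cplx1 turned to -0.06 when libraries were scaled to their totals. In CA2 its mean was lower in dendrites than in cell bodies, at 14.03 and 14.38. It was higher in CA1 (13.63 and 12.3), CA3 (14.22 and 14) and DG (12.63 and 12.06). Cplx3 was a low gene whose values scattered between mice, from 2.48 to 8.81 in dendritic libraries and from 0.27 to 7.27 in cell body libraries, and its layers overlapped. The SNARE group as a whole therefore divided, with 3 genes higher, 3 lower and 2 not passing.

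The vesicle clustering proteins Syn1 and Syn2, synapsins that tether vesicles to each other, were both lower in dendritic layers, and Syn3 did not pass. Syn2 was lower by -1.11 ± 0.0874 (adjusted p = 1.11e-10, limma). In the vesicle membrane group Syp (synaptophysin, the most used marker of synaptic vesicles), Sv2a and Sv2b were lower, Sv2c was higher by 1.18 ± 0.177 (adjusted p = 4.65e-06, limma) and Synpr did not pass. Sv2b, Sv2c and Synpr had opposite signs in different subregions, described below with the subregions. They were not alone. The means of other members also differed in sign between subregions, among them Cplx1, Stx1a, Vamp1, Vamp2, Syt7, Doc2a, Rab3c and Bsn.

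Of the calcium sensors, Syt1, the synaptotagmin that triggers fast release, was lower by -1.38 ± 0.101 (adjusted p = 2.56e-11, limma). Syt4, Syt5 and Doc2a were lower too, Doc2a in 2 of 3 mice. Doc2b, a sensor with high calcium affinity, was higher by 0.8 ± 0.123 (adjusted p = 7.29e-06, limma). The gap was widest in CA3, with means of 9.31 in dendrites and 6.57 in cell bodies, and CA1 had 13.77 and 13.17. The layers were close in CA2, at 10.18 and 10.19, and in DG, at 12.39 and 12.53. Syt7, a slow sensor linked to asynchronous release and facilitation, gave 0.06 ± 0.0842 and did not pass. That mean joins opposite signs. Syt7 averaged 14.42 in CA1 dendrites and 13.42 in CA1 cell bodies, but 12.65 and 13.28 in CA2. DG had 14.02 and 13.81, and CA3 14.06 and 14.39. Syt2 ranged from 6.55 to 11 in dendritic libraries and did not pass either.

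Rab3 proteins are small GTPases on the vesicle, and Rph3a (rabphilin) binds them. Rab3a, the Rab3 gene with the highest level per kilobase of transcript, was lower in dendritic layers by -1.61 ± 0.0962 (adjusted p = 6.54e-13, limma). Rab3b was higher by 1.25 ± 0.153 (adjusted p = 2.16e-07, limma) and Rph3a by 1.27 ± 0.0829 (adjusted p = 3.01e-12, limma). Rab3c gave 0.18 ± 0.0982 and did not pass. Its means were higher in dendrites than in cell bodies of CA3 (14.43 and 13.75) and DG (12.71 and 11.85). They were lower in CA2 (14.1 and 14.69) and CA1 (14.5 and 14.73).

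All 9 active zone genes were called, 4 higher and 5 lower. Unc13 proteins prime vesicles for fusion, and the 3 of them divided. Unc13c, best known from cerebellar granule cells, ranged from 9.41 to 12 in dendritic libraries (median 10.89) and from 5.54 to 8.61 in cell body libraries (median 7.85), so that the lowest dendritic library was above the highest cell body library. It was higher by 3.27 ± 0.217 (adjusted p = 4.27e-12, limma), while Unc13a and Unc13b were lower by -0.93 ± 0.0894 and -0.69 ± 0.149. Nsf and Unc13c were the only members of the 36 whose 12 dendritic and 12 cell body libraries did not overlap. The share of all tested genes without overlap was not computed, so this describes those genes and not the 36 as a set. The scaffolds divided too. Rims1, a Rab3-binding scaffold that recruits calcium channels, was higher by 0.76 ± 0.0964 (adjusted p = 3.88e-07, limma), as was Rims2. Bsn (bassoon) was higher by 0.47 ± 0.0709, although Bsn turned to -0.03 under scaling to totals. Its sign also varied with the subregion. Bsn averaged 16.36 in CA1 dendrites and 14.93 in CA1 cell bodies, and 15.8 and 14.55 in DG. In CA2 dendrites it was lower, at 15.4 against 16.14 in cell bodies, and CA3 had 16.84 and 16.9. Its large relative Pclo (piccolo) was lower by -1.05 ± 0.108 (adjusted p = 1.34e-08, limma), and so were Erc2 and Rimbp2.

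**Figure D2:**
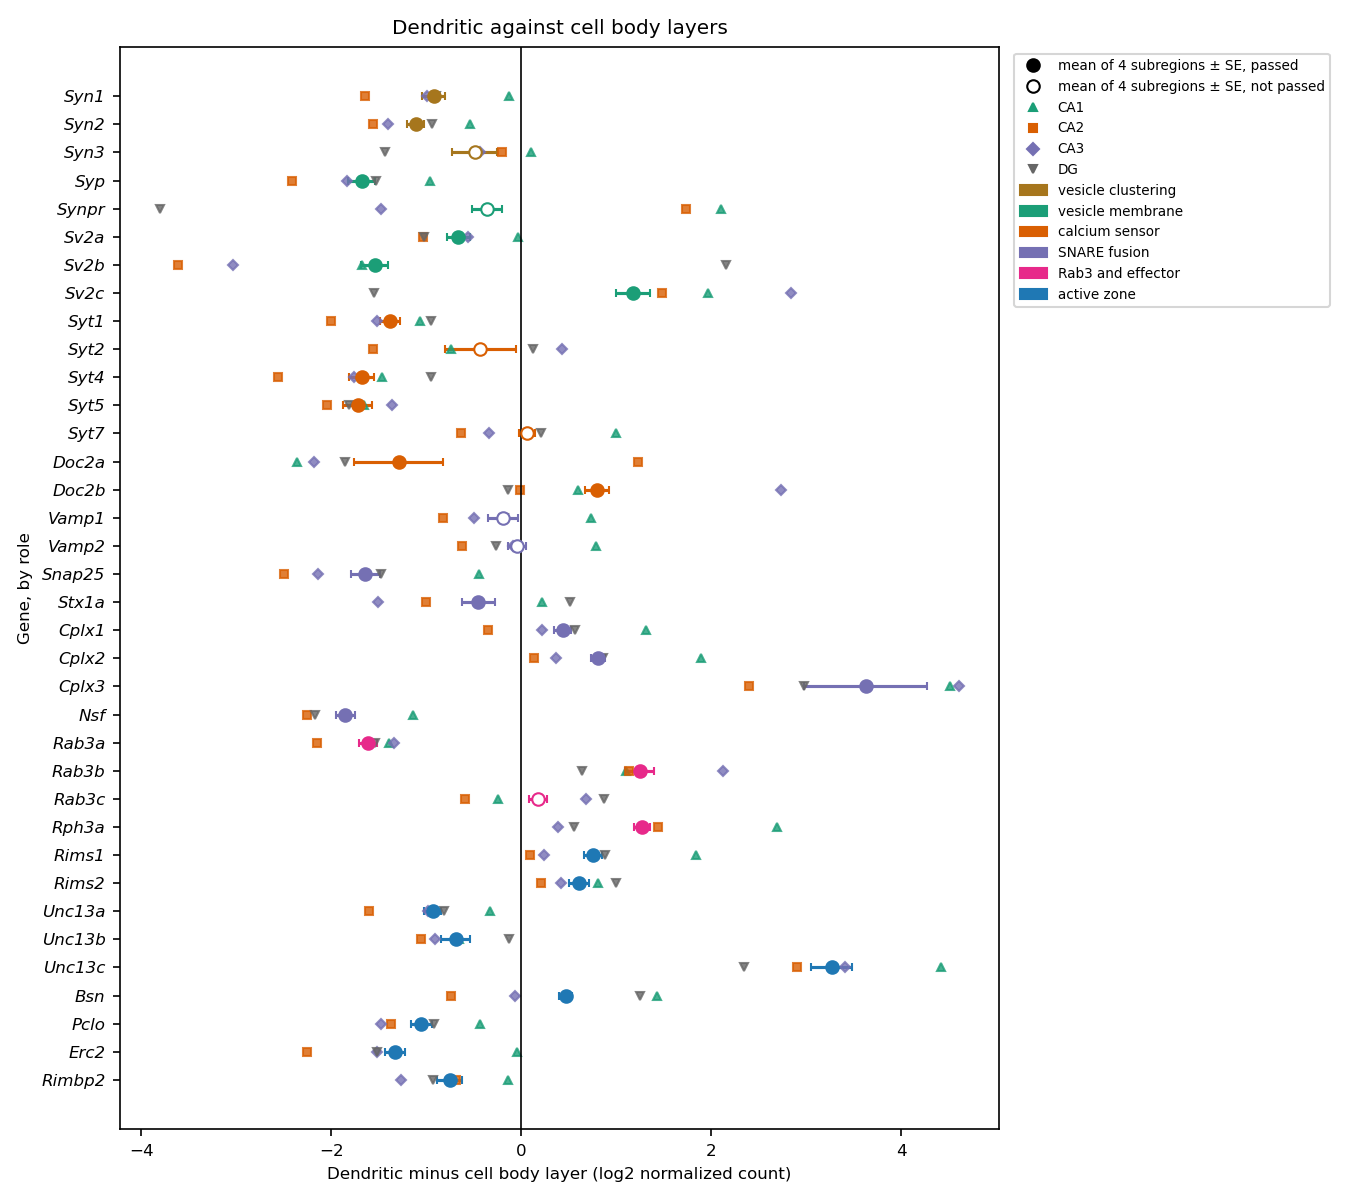
The x axis is the log2 difference of dendritic minus cell body layer, and genes run down by role. Large circles are means over 4 subregions with SE bars, filled where the adjusted p was below 0.05, and small symbols are the 4 subregions. Unc13c and Cplx3 lie farthest right at 3.27 and 3.63, and Synpr and Sv2b have small symbols on both sides of 0.

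Within subregions the same comparison called 21 of 36 genes in CA1 (13 higher, 8 lower; 58.3%, against 24.8% of all genes), 25 in CA2 (5 higher, 20 lower; 69.4% against 28%), 23 in CA3 (6 higher, 17 lower; 63.9% against 22.1%) and 26 in DG (9 higher, 17 lower; 72.2% against 22.3%). The balance depended on scaling. With libraries scaled to their totals, the split was 8 higher and 19 lower in CA1 and 3 higher and 23 lower in DG. With quantile normalization it was 12 higher and 15 lower in CA1, 9 higher and 13 lower in CA2, and 11 higher and 17 lower in CA3. With totals outside the mitochondrial genome it was 11 and 17 in CA1, 8 and 15 in CA2, and 11 and 16 in CA3. Without the CA2 and DG dendritic columns of mice 492 and 502, 15 genes were called in DG. Unc13c was higher in the dendritic layer of all 4 subregions, by 2.35 ± 0.434 in DG, 3.41 ± 0.434 in CA3, 2.91 ± 0.434 in CA2 and 4.42 ± 0.434 in CA1. Nsf, Syt1, Syt4, Syt5, Syn2, Syp and Rab3a were lower in the dendritic layer of all 4.

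Synpr (synaptoporin), a relative of synaptophysin known from mossy fibre terminals, had opposite signs in different subregions. Dendritic libraries had 10.07, 9.59 and 9.24 in DG, 10.86, 11.06 and 10.99 in CA3, 10.95, 10.75 and 10.91 in CA2, and 11.86, 10.94 and 9.69 in CA1. Cell body libraries had 13.44, 13.39 and 13.48 in DG, 12.54, 12.49 and 12.31 in CA3, 8.97, 9.13 and 9.27 in CA2, and 8.96, 8.45 and 8.75 in CA1. Cell bodies of DG and CA3 were thus above those of CA1 and CA2, whereas among dendritic layers DG had the lowest mean. The difference was -3.8 ± 0.315 for DG (adjusted p = 1.1e-09, limma), -1.47 ± 0.315 for CA3 (adjusted p = 0.00105), 1.74 ± 0.315 for CA2 (adjusted p = 0.000136) and 2.11 ± 0.315 for CA1 (adjusted p = 1.24e-05). In each of the 4 subregions the dendritic and cell body libraries did not overlap.

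Between dendritic layers, CA3 against DG called the most genes of the 3 comparisons with CA3. CA3 was higher for 21 of 36 genes and lower for 1, and 14 did not pass. The share called higher was 58.3%, where 4.24% of all tested genes were called higher, and 61.1% were called either way, where 5.57% of all genes were. The median difference was 1.13 for the 36 genes and 0.02 for all genes. Leaving out the CA2 and DG dendritic columns of mice 492 and 502, which leaves DG with 1 library, left 5 genes called. Levels of neuronal RNA moved with this comparison: all 6 general neuronal markers were higher in CA3, with a median difference of 1.24 and sums of 304 to 436 in CA3 dendritic libraries and 144 to 271 in DG dendritic libraries. So were 13 of 18 interneuron markers, with sums of 158 to 194 in CA3 and 51 to 71.7 in DG. Astrocyte sums were 491 to 684 in CA3 and 736 to 1010 in DG, with 2 of 12 markers called lower. Their part in the difference was not tested.

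The genes that rose spanned every role. Syt1 was 15.62, 15.88 and 15.28 in CA3 dendrites and 13.77, 14.51 and 13.55 in DG dendrites, a difference of 1.65 ± 0.201 (adjusted p = 6.21e-06, limma). Syt4 was higher as well. Cplx1 was 14.29, 14.34 and 14.02 in CA3 dendrites and 12.53, 13.06 and 12.3 in DG dendrites, a difference of 1.59 ± 0.176 (adjusted p = 1.71e-06). For both genes every CA3 library was above every DG library. All 4 genes of the Rab3 group were higher, with the largest difference for Rab3b, at 10.61, 10.94 and 10.29 in CA3 dendrites and 8.13, 8.94 and 8.32 in DG dendrites, or 2.15 ± 0.306 (adjusted p = 4.97e-05). Rab3c followed with 1.72 ± 0.196 (adjusted p = 2.43e-06).

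Syn1 and Syn2 were higher by 1.67 ± 0.24 and 1.79 ± 0.175. In the vesicle membrane group Syp, Synpr, Sv2a and Sv2b were higher and Sv2c did not pass. Of the SNARE group Vamp1, Vamp2, Snap25, Cplx1 and Nsf were higher, Snap25 by 1.65 ± 0.302 (adjusted p = 0.00159). Cplx2 did not follow the others: it was 17.09, 17.18 and 16.54 in CA3 dendrites and 17.24, 17.24 and 16.82 in DG dendrites, a difference of -0.16 ± 0.155 that did not pass, with overlapping groups. At the active zone Rims1, Rims2, Bsn and Pclo were higher, Pclo by 1.62 ± 0.217 (adjusted p = 2.12e-05), and the 3 Unc13 genes, Erc2 and Rimbp2 did not pass. Syt7 gave 0.04 ± 0.168.

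Doc2b was the 1 gene that was lower in CA3 dendrites. It was 8.88, 9.64 and 9.41 in CA3 dendrites and 12.39, 12.6 and 12.2 in DG dendrites, a difference of -3.08 ± 0.246 (adjusted p = 1.02e-08, limma). CA1 dendrites had the highest values, 13.9, 13.54 and 13.88, and CA2 dendrites had 10.27, 10.22 and 10.04. The order CA1, DG, CA2, CA3 had no overlap between neighbours, but CA3 and CA2 did not differ past the threshold (-0.87 ± 0.246, adjusted p = 0.0928). The means had the same order in the cell bodies, where CA3 had 6.08, 7.17 and 6.45, CA2 10.03, 10.22 and 10.32, DG 12.63, 12.47 and 12.51, and CA1 13.31, 12.98 and 13.24. There CA3 was lower than CA1 by -6.61 ± 0.246 and lower than DG by -5.97 ± 0.246 (adjusted p = 5.86e-15 and 1.39e-14, limma), while CA1 and DG did not differ past the threshold (0.64 ± 0.246).

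**Figure D3:**
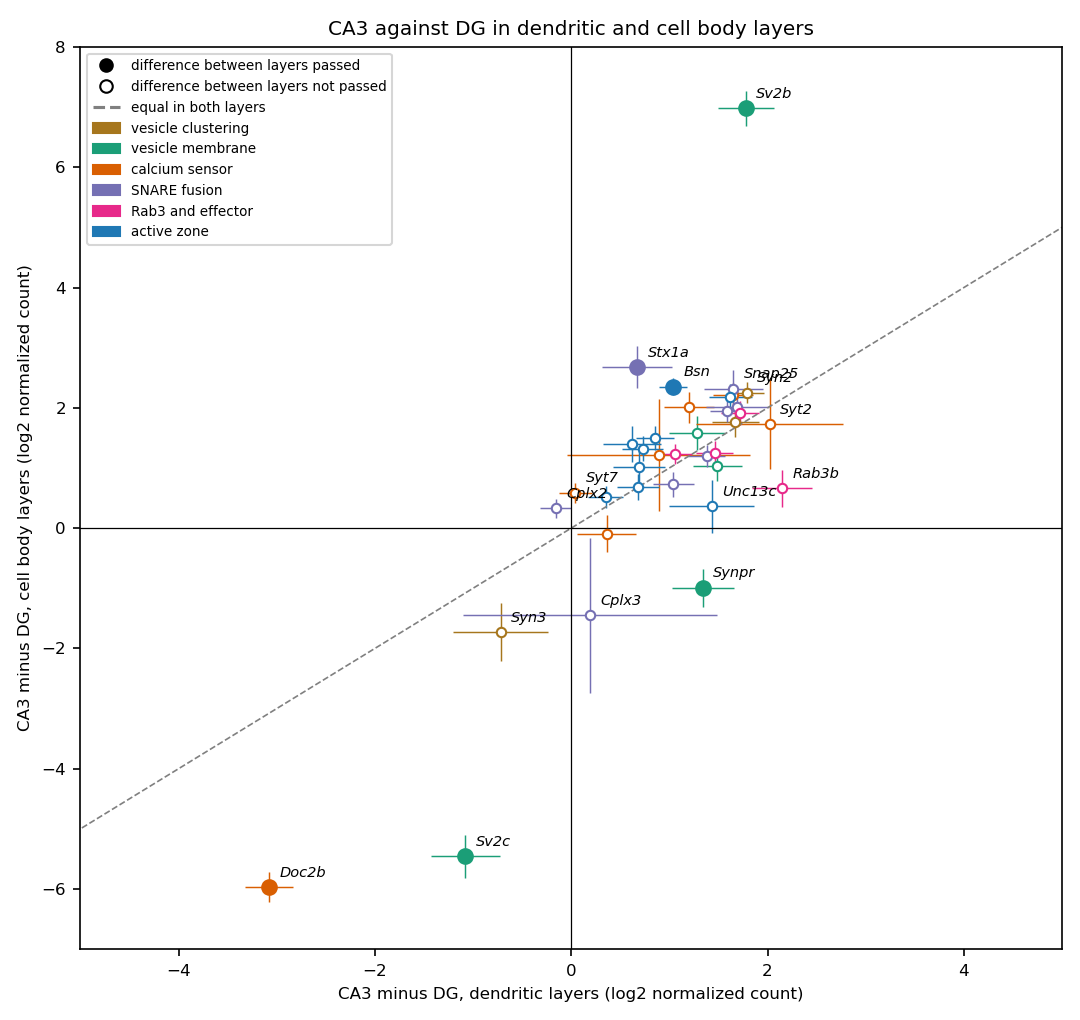
Each point is a gene, with the log2 difference of CA3 minus DG in dendritic layers on the x axis and in cell body layers on the y axis, and SE bars. Filled points are the 6 genes for which the dendritic and cell body differences were not equal at an adjusted p below 0.05, and the dashed line marks equal differences. Most genes cluster in the upper right, and Doc2b lies in the lower left at -3.08 and -5.97.

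Comparing all pairs of dendritic layers tells a gene that is high in CA3 from one that is low in DG. A gene was counted as high in CA3 when CA3 was above CA1, CA2 and DG, each at an adjusted p below 0.05, and as low in DG when DG was below the other subregions in the same way. In dendrites 3 genes were high in CA3, Syn2, Rph3a and Bsn (8.33%, where 0.128% of all tested genes met the rule). Another 11 were low in DG (30.6%, where 1.08% of all genes were): Synpr, Sv2a, Sv2b, Syt1, Vamp2, Snap25, Cplx1, Rab3a, Rab3b, Rab3c and Pclo. No gene met both rules, as 0.0281% of all genes did, and 22 met neither. These counts depend on scaling and on few libraries. With scaling to totals, 5 genes were high in CA3 and 7 low in DG. Without mouse 492, 1 gene was high in CA3 and 0 were low in DG. Without mouse 502, 6 were low in DG. With the CA1 dendritic libraries of mice 492 and 496 left out, 2 were, and without the CA2 and DG columns that have a repeat, 0 genes met either rule. At the level of means, DG had the lowest dendritic value for 27 of 36 genes, and CA3 had the highest for 19 and CA1 for 14.

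Rph3a was high in CA3 in both layers. In dendrites it was 15.68, 15.93 and 15.17 in CA3, 13.71, 13.88 and 13.02 in CA1, 14.08, 14.03 and 13.81 in CA2, and 14.68, 14.72 and 14.17 in DG. CA3 was above all others in every library, by 2.05 ± 0.166 over CA1 (adjusted p = 1.63e-08, limma). In cell bodies it was 15.27, 15.22 and 15.11 in CA3, 10.98, 10.76 and 10.78 in CA1, 12.44, 12.67 and 12.47 in CA2, and 13.97, 13.99 and 13.94 in DG, and CA3 was above CA1 by 4.36 ± 0.166 (adjusted p = 5.86e-15). The spread between subregions was thus wider in cell bodies, and the dendritic minus cell body difference in CA1 was 2.7 ± 0.166 (adjusted p = 5.74e-12).

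The other comparisons between dendritic layers called fewer genes against CA3. CA3 against CA1 gave 4 higher and 2 lower (16.7%, against 5.67% of all genes), and 3 genes without mouse 492. Under quantile normalization the split was 14 higher and 1 lower, and 15 and 1 with scaling to totals. The 4 were Syn2, Rph3a, Cplx1 and Bsn, and the lower genes were Doc2b and Unc13a. The Bsn libraries of CA3 and CA1 overlapped. CA3 against CA2 gave 5 higher and 0 lower in limma (13.9%, against 1.14%), with 1 lower at an unadjusted p below 0.05. The 5 were Syn2, Syt7, Cplx2, Rph3a and Bsn. The comparison called 2 genes without mouse 492 and 2 without the columns that have a repeat. Under quantile normalization the split was 5 higher and 1 lower, and with scaling to totals 8 and 0. Of the neuronal markers, 3 of 6 were higher in CA3 than in CA2, and 1 of 6 higher and 1 lower in CA3 than in CA1. Of the interneuron and oligodendrocyte markers, 7 of 18 and 6 of 12 were higher in CA3 than in CA1.

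CA2 dendrites held the lowest Syt7, at 12.56, 12.81 and 12.58, where CA1 had 14.45, 14.55 and 14.27, CA3 14.14, 14.36 and 13.67, and DG 14.18, 14.21 and 13.66. No CA2 library reached any other dendritic library, and CA2 was below CA1 by -1.77 ± 0.168 (adjusted p = 1.28e-07, limma). CA2 against CA1 called 8 genes lower and 0 higher in limma (22.2%, against 9.82% of all genes), with 3 higher at an unadjusted p below 0.05. Under quantile normalization the split was 8 higher and 3 lower, with scaling to totals 3 and 4, and with totals outside the mitochondrial genome 9 and 4. With no filter, or with dendritic libraries fitted alone, 5 genes were called. Without mouse 492, 5 genes were called, without the columns that have a repeat 3, and without mice 492 and 496 in CA1 dendrites, 4. CA1 against DG called 23 higher and 2 lower (69.4%, against 12.6%). It gave 9 higher and 3 lower under quantile normalization and 8 and 3 with scaling to totals. It called 10 genes without mouse 492, 3 without the columns that have a repeat, and 6 without mice 492 and 496 in CA1 dendrites. Beside it, all 6 neuronal markers were higher in CA1 (median difference 1.32; sums of 337 to 443 in CA1 and 144 to 271 in DG), as were 11 of 18 interneuron markers (81.5 to 134 in CA1 and 51 to 71.7 in DG), and 6 of 12 oligodendrocyte markers were lower (125 to 138 in CA1 and 193 to 252 in DG). CA2 against DG called 11 higher and 3 lower (38.9%, against 2.38%). It gave 16 higher and 6 lower under quantile normalization and 12 and 7 with scaling to totals. It called 3 genes without mouse 492, 9 without mouse 502 and 1 without the columns that have a repeat. Beside it, 11 of 18 interneuron and 2 of 6 neuronal markers were higher in CA2. Between CA2 and CA1, 3 of 6 neuronal markers were lower and 7 of 12 oligodendrocyte markers higher in CA2. The part of these markers in the differences was not tested.

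In cell bodies CA3 was above DG for 24 of 36 genes and below for 4 (77.8%, against 14.5% of all genes). The median difference was 1.24 for the 36 genes and 0.08 for all genes. CA3 against CA1 called 18 higher and 3 lower (58.3%, against 6.58%), with 13 called without mouse 492, and CA2 against CA1 called 18 higher and 2 lower (55.6%, against 7.26%), with 10 called without mouse 492 and 13 without mouse 502. CA3 against CA2 called 5 higher and 3 lower (22.2%, against 3.58%), or 10 higher and 2 lower under quantile normalization, 10 and 3 with totals outside the mitochondrial genome, and 12 and 6 when cell body libraries were fitted alone. It called 3 genes without mouse 492. CA2 was above DG for 24 and below for 6 (83.3%, against 17.2%), or 14 and 7 with scaling to totals. CA1 was above DG for 13 and below for 6 (52.8%, against 10%), or 9 and 10 under quantile normalization and 21 and 8 when cell body libraries were fitted alone, with 10 called without mouse 492.

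Markers of other cells moved with the cell body comparisons. All 6 general neuronal markers were higher in CA3 than in DG cell bodies, with a median difference of 1.41 and sums of 175 to 187 in CA3 and 70.9 to 75.1 in DG. All 12 oligodendrocyte markers were higher too, with sums of 45 to 56.1 in CA3 and 12.4 to 25 in DG, as were 12 of 18 interneuron markers (62.4 to 78.6 in CA3 and 30.3 to 33.8 in DG) and 6 of 12 astrocyte markers (156 to 159 in CA3 and 59.3 to 61 in DG). Against CA1, where oligodendrocyte sums were 13 to 13.6, all 12 of these markers were higher in CA3 and 11 of 12 in CA2, and 2 of 6 neuronal markers were higher in each. CA2 was above DG for all 12 oligodendrocyte, 4 of 6 neuronal, 11 of 18 interneuron, 6 of 12 astrocyte and 4 of 9 endothelial markers. It was below DG for 1 interneuron marker. CA1 was above DG for 4 of 6 neuronal, 11 of 18 interneuron, 3 of 12 astrocyte and 2 of 9 endothelial markers. It was below DG for 2 of 12 oligodendrocyte, 1 interneuron and 1 astrocyte marker. Their part in the differences was not tested.

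By the rules above, Syn2, Syt7, Rph3a and Bsn were high in CA3 cell bodies (11.1%, against 0.558%), 1 gene without mouse 492 and 9 genes when cell body libraries were fitted alone. The 11 genes low in DG cell bodies (30.6%, against 4.81%) were Syn1, Sv2b, Syt1, Syt4, Vamp2, Stx1a, Rab3a, Rab3c, Rims2, Unc13b and Pclo. The number was 5 without mouse 492 and with scaling to totals, 7 under quantile normalization and 19 when cell body libraries were fitted alone. Syn2, Rph3a and Bsn met the CA3 rule in both layers. The genes lower in CA3 than in CA1 cell bodies were Doc2b, Sv2c and Rab3c. Sv2c differed by -1.29 ± 0.353 (adjusted p = 0.0246, limma). Rab3c had CA3 cell bodies at 13.84, 13.66 and 13.76, below CA1 at 14.65, 14.69 and 14.86 by -0.98 ± 0.196 (adjusted p = 0.0015, limma).

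The CA3 minus DG difference was tested between the layers directly. It was not equal in dendrites and cell bodies for 6 genes, 3 higher and 3 lower in dendrites (16.7%, against 3.99% of all genes), or 9 and 6 under quantile normalization, 7 and 3 with scaling to totals and 8 and 3 with totals outside the mitochondrial genome. The 6 were Synpr (2.33 ± 0.445), Sv2b (-5.19 ± 0.404), Sv2c (4.38 ± 0.5), Doc2b (2.88 ± 0.347), Stx1a (-2.01 ± 0.497) and Bsn (-1.31 ± 0.2). Of these, Synpr alone changed sign, being higher in CA3 than in DG dendrites by 1.34 ± 0.315 and lower in CA3 than in DG cell bodies by -0.99 ± 0.315 (adjusted p = 0.00996 and 0.0345, limma). For Sv2b, Sv2c, Doc2b, Stx1a and Bsn the difference was larger in cell bodies. Stx1a was 9.8, 10.76 and 10.21 in CA3 dendrites and 9.14, 10.72 and 8.91 in DG dendrites, where the groups overlapped. It was 12.06, 11.57 and 11.65 in CA3 cell bodies and 8.89, 9.26 and 9.1 in DG cell bodies, where they did not.

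The 3 Sv2 genes encode vesicle glycoproteins with a transporter fold, of which SV2A is the target of the drug levetiracetam and SV2C serves as a receptor for botulinum toxin. Sv2b separated the CA fields from DG. In cell bodies it was 15.59, 15.43 and 15.57 in CA3, 15.35, 15.43 and 15.4 in CA2, 14.34, 14.13 and 14.34 in CA1, and 7.83, 8.96 and 8.88 in DG. CA3 was above DG by 6.98 ± 0.286 (adjusted p = 1.39e-14, limma). In dendrites Sv2b was 12.2, 13.08 and 12.23 in CA3 and 10.17, 11.44 and 10.54 in DG, a difference of 1.78 ± 0.286. Its level in the DG dendritic layer was above that in the granule cell layer in all 3 mice, by 2.16 ± 0.286 (adjusted p = 2.38e-06), whereas in CA3 the dendritic layer was below the cell bodies by -3.03 ± 0.286 (adjusted p = 2.02e-08).

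Sv2c had the reverse pattern in cell bodies, with 6.8, 6.87 and 6.97 in CA3 and 12.45, 12.27 and 12.3 in DG, a difference of -5.46 ± 0.353 (adjusted p = 2.72e-11, limma). In dendrites it was 9.84, 10.08 and 9.23 in CA3 and 11.62, 10.55 and 10.22 in DG, which did not pass at -1.08 ± 0.353 (adjusted p = 0.0779). Sv2a ranged from 13 to 14.66 over the cell body libraries. Levels of paralogs were compared per kilobase of transcript. Sv2b made up 66.6% ± 1.37 (SD, n = 3) of the Sv2 level in CA3 cell bodies, 67.2% ± 1.26 in CA2, 61.8% ± 1.91 in CA1 and 2.98% ± 1.13 in DG. Sv2c made up 23.3% ± 1.21 in DG cell bodies and at most 0.557% in any library of the CA cell bodies. In the dendritic layers Sv2a held the largest share everywhere, from 63.5% in CA1 to 74.4% in CA2.

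The sequences in front of Sv2b and Sv2c are shown because these neighbours in function had opposite levels in DG cell bodies. In DG dendrites their means were alike, at 10.72 and 10.8. They are the 250 bases before a RefSeq start on GRCm38.p6, the one nearest to the 5′ end of transcript Sv2b-201 or Sv2c-201, at chr7:75308387-75308636 on the minus strand for Sv2b and chr13:96132578-96132827 on the minus strand for Sv2c. RefSeq gives 4 starts for Sv2b, and the window shown lies inside the annotated gene (chr7:75114894-75309262, minus strand), since another transcript starts farther upstream. Sv2b-201 was not the higher transcript in every group. In cell bodies it averaged 14.37 in CA3, 14.11 in CA2, 13.48 in CA1 and 7.19 in DG, where Sv2b-202 averaged 14.82, 14.68, 13.27 and 7.84. Capitals mark matches on either strand to 6 motifs: the TATA box TATAAA, the CCAAT box, the E box CACGTG, the GC box GGGCGG, the cyclic AMP response element TGACGTCA and its shorter form TGACG, which lies inside the full element.
Sv2b: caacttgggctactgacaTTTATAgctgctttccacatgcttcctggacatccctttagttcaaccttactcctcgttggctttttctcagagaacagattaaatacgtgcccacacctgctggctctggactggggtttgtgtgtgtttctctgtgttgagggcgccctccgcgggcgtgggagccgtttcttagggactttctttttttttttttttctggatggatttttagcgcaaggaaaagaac
Sv2c: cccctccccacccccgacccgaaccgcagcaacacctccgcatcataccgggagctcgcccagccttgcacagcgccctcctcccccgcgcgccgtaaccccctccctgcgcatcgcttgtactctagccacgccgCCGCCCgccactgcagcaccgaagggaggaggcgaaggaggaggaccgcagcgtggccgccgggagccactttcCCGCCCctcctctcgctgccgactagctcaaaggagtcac
The Sv2b window held 47.2% G and C and 8 CG pairs, and its only match was TATAAA, read on the opposite strand near the upstream end of the window. The Sv2c window held 70.8% G and C and 26 CG pairs, with GGGCGG matches on the opposite strand and no TATAAA. Promoters were found for 27 of the 36 genes, whose median G and C content was 62%, where it was 52.4% over 32851 promoters. The GC box GGGCGG was present in 19 of 27 (70.4%, against 32.7% of all promoters), CCAAT in 11 (40.7%, against 33.8%), TGACG in 5 (18.5%, against 17.8%), CACGTG in 3 (11.1%, against 6.02%) and TATAAA in Sv2b and Rab3b (7.41%, against 12.4%). TGACGTCA, the cyclic AMP response element, was present in Syn1 alone (3.7%, against 1.55%). A match is a run of letters in the window and was not tested as a binding site. The genes with no promoter sequence were Syn3, Syt4, Syt5, Syt7, Doc2a, Doc2b, Vamp2, Snap25 and Rims2.

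Other families shifted in their make-up too. Doc2a made up 91.8% ± 2.8 (SD, n = 3) of the Doc2 level per kilobase in CA3 cell bodies, where it was 13.5% ± 7.81 in CA2, 2.23% ± 1.56 in CA1 and 7.31% ± 0.625 in DG cell bodies. In CA3 dendrites the share scattered from 0.629% to 40.8% between mice. The Doc2a level itself was low, at 9.43, 9.79 and 9.19 in CA3 cell bodies and 8.6, 7.68 and 8.47 in DG cell bodies, and did not differ past the threshold (1.22 ± 0.93), whereas Doc2b was lower in CA3 as given above. Cplx2 made up 90.6% ± 1.64 of the complexins in DG dendrites and 89% ± 0.619 in DG cell bodies, and its mean was between 60.6% and 76.4% in the CA layers. Rab3a held 65.2% to 76.5% of the Rab3 level in the means of the dendritic layers and 83.4% to 94.7% in those of the cell body layers. Unc13c held 11% to 22.1% of the Unc13 level in dendritic means and 0.381% to 1.78% in cell body means.

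**Figure D4:**
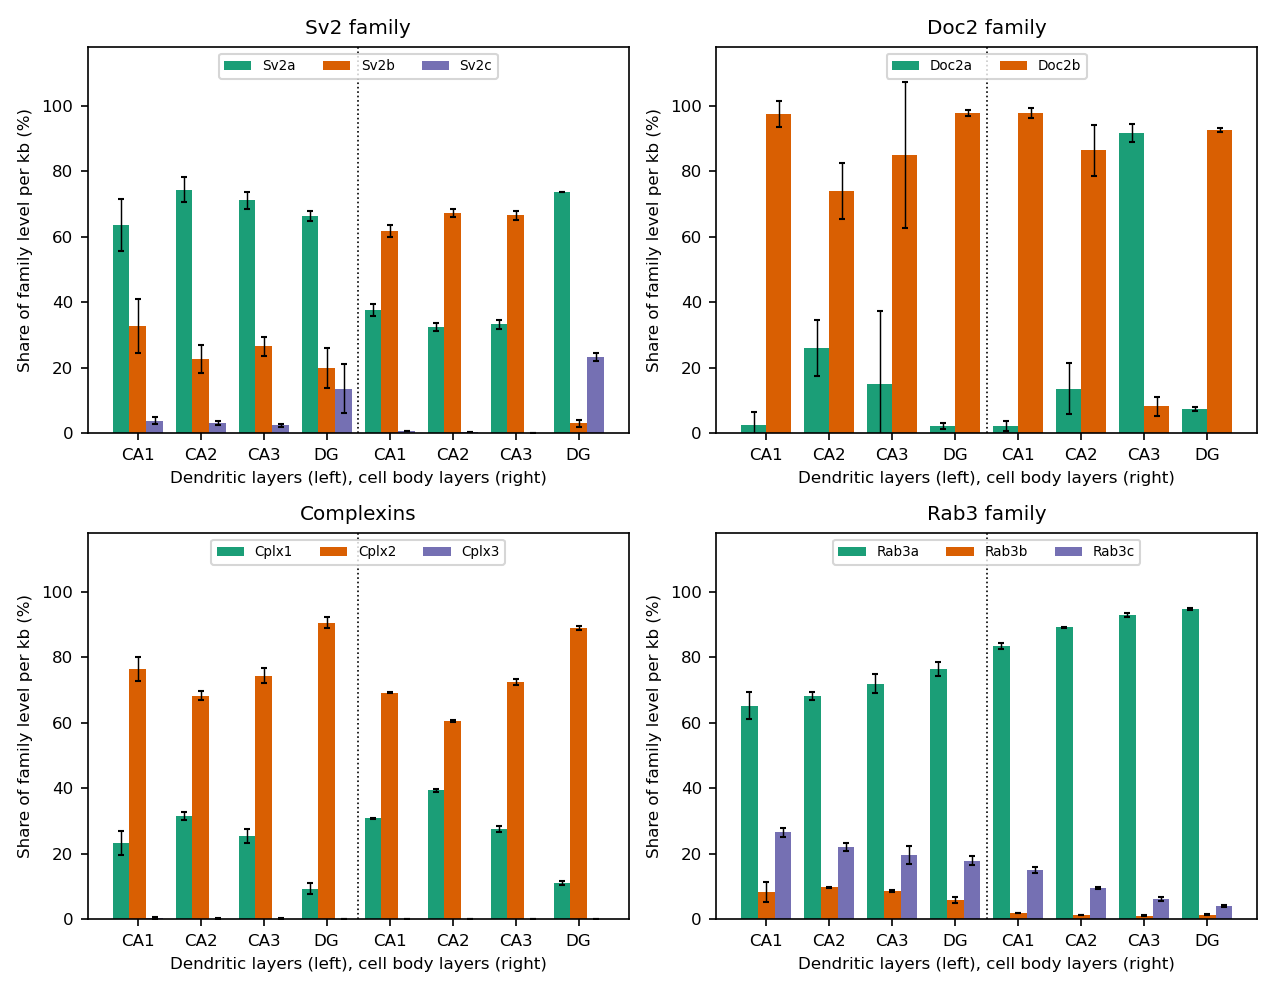
Bars are the mean share of each paralog in its family's level per kilobase of transcript (percent, y axis from 0) in the 8 groups, with dendritic layers left and cell body layers right of the dotted line. Error bars are SD over 3 mice. Sv2b is at 2.98% and Sv2c reaches 23.3% in DG cell bodies, and Doc2a reaches 91.8% in CA3 cell bodies alone.

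Transcripts of 20 of the 36 genes could be tested for unequal change within a gene with limma's diffSplice, among 10025 genes. Between layers 4 of the 20 were called, Rims1, Pclo, Syn2 and Syt5, a share near the 19.7% of all genes called, and between CA3 and DG dendrites 1 was, Rims1, where 1.67% were. The values are Salmon estimates, which divide reads between transcripts that share most of their exons. Without mouse as a block, Syt5 (adjusted p = 0.0496) was not called, and between CA3 and DG dendrites Rimbp2 was called beside Rims1, 2 genes in all.

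Pclo, at chr5:14514918-14863459 on the plus strand of GRCm38, had a long coding transcript, Pclo-201, which holds 25 exons, and a shorter one, Pclo-202, which lacks exons 21 to 25. Pclo-202 was lower in dendritic layers by -1.43 on the log2 scale and Pclo-201 by -0.54, while Pclo-203, annotated as a retained intron, differed by 0.7 (adjusted p for unequal change among these 3 transcripts = 0.000135, limma). The test does not single out the pair of coding transcripts. The share of Pclo-201 in the pair, per kilobase, was 20.5%, 18.9% and 19.8% in CA1 dendrites and 7.97%, 8.01% and 7.32% in CA1 cell bodies. It was 19.6%, 25.4% and 28.5% in CA2 dendrites and 13.4%, 11.3% and 10.5% in CA2 cell bodies. In CA3 it was 24.5%, 17.7% and 31.4% in dendrites and 13.8%, 12.9% and 13.1% in cell bodies. The 2 layers did not overlap in any CA field. In DG they did, at 14.3%, 14.1% and 17.5% in dendrites and 17.6%, 16.8% and 20.2% in cell bodies, with the higher mean in cell bodies. Whether the shift differs between subregions was not tested. The first coding exon that Pclo-201 holds and Pclo-202 lacks is exon 21, at chr5:14811610-14811751 on the plus strand. It is shown in capitals with 15 bases of each neighbouring exon in lower case, from GENCODE M21.
Pclo-201 exon 21: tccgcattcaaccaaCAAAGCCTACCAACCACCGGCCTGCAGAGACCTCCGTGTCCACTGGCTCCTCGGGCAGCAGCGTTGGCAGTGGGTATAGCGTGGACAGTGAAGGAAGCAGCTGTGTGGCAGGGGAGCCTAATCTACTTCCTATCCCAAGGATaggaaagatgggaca

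Rims1 lies at chr1:22286251-22805994 on the minus strand. Its transcripts differ in 3 coding exons of 63, 90 and 72 bases, each a multiple of 3, which lie next to each other. The transcript of 6179 bases holds all 3, that of 6107 bases holds the first pair, and that of 5954 bases lacks them all. The exons are shown in capitals, with 15 bases of the neighbouring exons of the 6179-base transcript in lower case. They lie at chr1:22425871-22425933, chr1:22421741-22421830 and chr1:22404444-22404515, all on the minus strand of GRCm38.
Rims1 exon 24: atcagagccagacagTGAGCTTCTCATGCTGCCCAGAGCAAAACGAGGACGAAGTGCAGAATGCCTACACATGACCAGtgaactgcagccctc
Rims1 exon 25: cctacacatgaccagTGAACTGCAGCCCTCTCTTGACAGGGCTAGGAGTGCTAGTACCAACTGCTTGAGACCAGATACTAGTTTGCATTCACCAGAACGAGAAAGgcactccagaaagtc
Rims1 exon 26: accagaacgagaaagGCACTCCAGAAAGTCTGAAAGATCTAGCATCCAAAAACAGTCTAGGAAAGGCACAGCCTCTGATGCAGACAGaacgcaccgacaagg
The log2 difference of dendritic minus cell body layers was 1.74 for the 5954-base transcript, 0.1 for the 6107-base and 0.24 for the 6179-base transcript. Among the other tested transcripts it was 1.42 for one of 2189 bases, which holds the 63-base exon, 0.47 for one of 6362 bases, which holds it too, 0.03 for one of 2411 bases and -1.99 for one of 2294 bases. The adjusted p for unequal change among the 7 transcripts was 1.05e-08 (limma). The share with the 63-base exon was taken per kilobase over transcripts that span it, which leaves out those of 2411 and 2294 bases. This share was 75.6% ± 19.4 in CA1 dendrites and 87.9% ± 13 in CA1 cell bodies, and 73.1% ± 4.92 and 84% ± 7.56 in CA2. It was 75.6% ± 8.24 and 79.4% ± 3.46 in CA3, and 83.5% ± 4.44 and 88.5% ± 1.24 in DG (SD, n = 3). The mean was below that of the cell bodies in each of the 4, but the libraries overlapped in every subregion. Between CA3 and DG dendrites the 2294-base transcript had the largest difference of the 7 tested. It was 10.12, 9.34 and 9.36 in CA3 dendrites and 5.93, 3.59 and 3.48 in DG dendrites, a difference of 5.27, while the 2189-base transcript differed by -0.56 (adjusted p for unequal change = 0.00018, limma). The 2294-base transcript was also 3.74 in the CA1 dendritic library of mouse 496 and 9.86 and 8.94 in the other CA1 dendritic libraries.

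**Figure D5:**
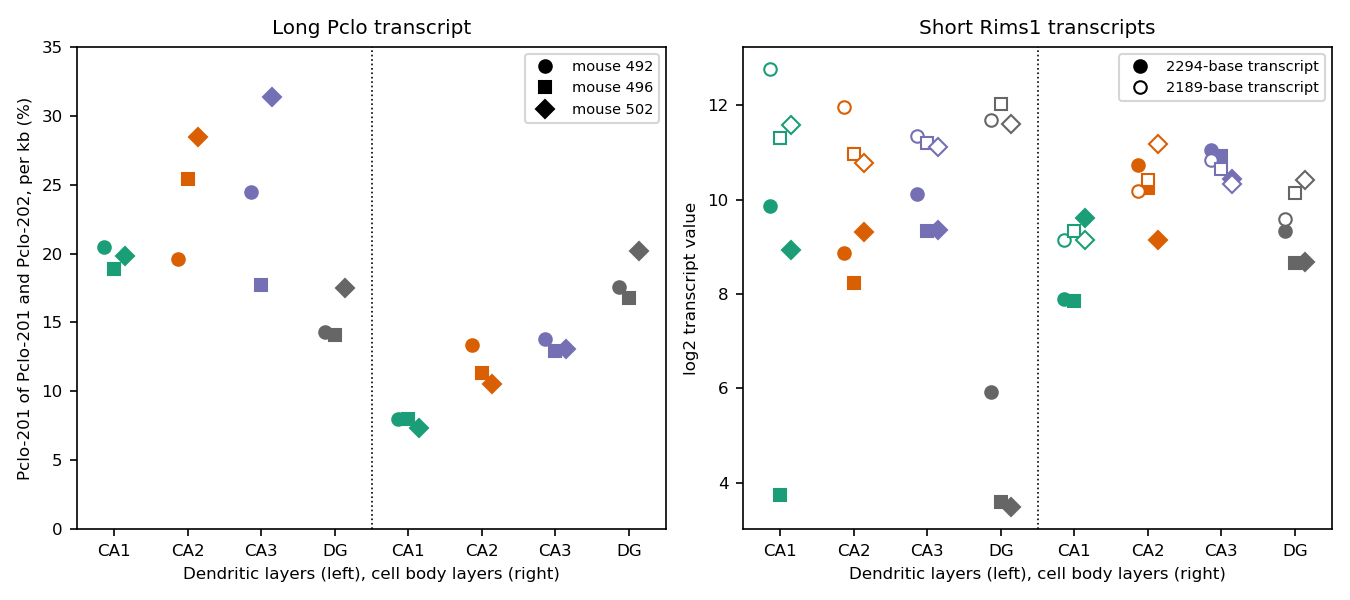
The left panel gives the share of Pclo-201 in Pclo-201 and Pclo-202 per kilobase (percent) in each library, and the right panel the log2 values of the 2294-base (filled) and 2189-base (open) Rims1 transcripts. Colours are subregions, symbols mice, and the dotted line separates dendritic layers on the left from cell body layers on the right. The 3 CA1 dendritic libraries sit at 18.9% to 20.5%, all above the CA1 cell body libraries, and DG dendrites hold the 2294-base Rims1 transcript at 3.48 to 5.93.

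Further genes of the release cycle, listed apart from the 36, were counted in the same comparisons. Of 42 other exocytosis genes tested, 13 were higher and 23 lower in dendritic than in cell body layers, and 20 were higher and 1 lower in CA3 than in DG dendrites. Of all tested genes 45.2% were called between layers and 5.57% between CA3 and DG dendrites, which holds for the lists that follow too. Syt6, a synaptotagmin, was higher in both comparisons, by 3.84 ± 0.242 and 3.5 ± 0.484. Rims3 was higher in dendritic layers by 2.82 ± 0.229, and Cadps2, a factor for dense core vesicles, was higher in CA3 dendrites by 2.08 ± 0.233. Of 25 other vesicle membrane genes, including transmitter transporters and the proton pump, 3 were higher and 20 lower in dendritic layers, and 14 were higher and 0 lower in CA3 dendrites.

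Slc17a8, the glutamate transporter VGLUT3, was 10.69 to 11.06 in CA3 dendrites and scattered from 1.12 to 5.88 in DG dendrites. It was higher in CA3 by 7.33 ± 0.742, and Slc32a1, the vesicular transporter of inhibitory neurons, by 2.61 ± 0.276 (limma, adjusted p at most 6.99e-07). Slc32a1 is also among the interneuron markers. Of 29 genes of vesicle endocytosis, 7 were higher and 17 lower in dendritic layers, and 14 were higher and 0 lower in CA3 dendrites. Dnm1, the dynamin that cuts vesicles from the membrane, was lower in dendritic layers by -1.56 ± 0.111 and higher in CA3 than in DG dendrites by 1.73 ± 0.223. The medians of the 3 lists for CA3 against DG dendrites were 0.77, 0.71 and 0.72, where the median of all genes was 0.02.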

How the data were processed

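Laser-captured RNA from 8 groups of 3 mice was sequenced, 24 libraries in all. The gene table holds log2 values that the authors made from Salmon read estimates with median normalization, per the file headers. Transcript values were deposited on the same log2 scale. The submitters' processing notes name the build mm10, the aligner STAR 2.5.1b, featureCounts 1.5.1 and Salmon 0.9.1 for quantification, and limma 3.32.2 under R 3.4.2. The annotation release is not stated. Because estimates and not counts were deposited, no counting interval was computed. Strand counting is not stated, so a gene and an overlapping antisense gene cannot be told apart. 12 columns of other samples were not used.

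Genes with a normalized count of at least 10 in at least 3 libraries were fitted with limma 3.58.1 (R 4.3.3, statmod 1.5.0; trend and robust settings), with 8 groups and a mouse term. The fit had 14 residual degrees of freedom. 18 comparisons were made, each adjusted by the Benjamini-Hochberg method over 24911 genes at a threshold of 0.05. The mouse block follows the labels, by which the 8 libraries of a number come from 1 animal. Deviations from group means had a median correlation of 0.0152 within a mouse (84 pairs) and -0.00667 between mice (168 pairs). p-values cover the spread among 3 mice. Each gene has 1 estimate of spread shared by the 8 groups, so SEs do not follow spreads that differ between layers. In CA1 the spread of most members was wider in dendrites: the SD of Snap25 was 1.04 there and 0.124 in cell bodies. For Unc13c it was 0.572 and 0.744. Where a layer spreads more widely than the shared estimate, its p-values can be too small, and where it spreads less, too large. Transcripts were tested with diffSplice. Levels of paralogs were divided by transcript length from GENCODE M21 and compared as shares of their family. The alternatives were quantile normalization, scaling to totals with or without the mitochondrial genome, other filters and pseudocounts, no mouse block, fits within a layer, and leaving out mice or libraries. The 36 genes and all lists were chosen with earlier results of these data known. Any of the 36 genes could be named. From each further list, up to 3 called genes with the largest absolute differences were eligible, and an eligible gene of the exocytosis list is not reported here. The fit was run on simulated data in which each gene had the same spread in all groups. That simulation cannot show how the fit behaves where the layers differ in spread.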

Additional observations from a re-analysis of the deposited data

Results flagged for a closer look

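For 6 genes the difference of CA3 minus DG was not the same in the 2 layers, by a test of the dendritic minus the cell body difference in limma with adjustment over all genes. Each had this sign in all 3 mice. Synpr, a membrane protein of mossy fibre vesicles, gave 2.33 on the log2 scale (adjusted p = 0.00183), with CA3 above DG in dendrites and below it in cell bodies. Sv2c gave 4.38 (adjusted p = 2.53e-06) and Doc2b 2.88 (adjusted p = 5.77e-06). For both, CA3 lay below DG by less in dendrites than in cell bodies, although Sv2c did not pass in dendrites alone. Sv2b gave -5.19 (adjusted p = 6.42e-09), Stx1a -2.01 (adjusted p = 0.0186) and Bsn -1.31 (adjusted p = 0.000154). For these 3, CA3 lay above DG by less in dendrites than in cell bodies.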

How the results depend on the processing

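Of 3902 member calls under the alternatives, 3363 kept their call and direction, 513 lost the call and 26 changed direction. Values that follow are counts of members called, unless a log2 difference is named. Under quantile normalization, dendritic CA3 against CA1 gave 15, CA1 against DG 12, CA2 against DG 22, the layer difference of CA3 minus DG 15, and genes low in DG cell bodies 7. With scaling to totals, dendritic CA3 against CA1 gave 16, CA3 against CA2 8 and CA1 against DG 11, the layer difference 10, genes high in CA3 dendrites 5, low in DG dendrites 7 and low in DG cell bodies 5. That scaling also turned the layer differences of Cplx1 and Bsn to -0.06 and -0.03 on the log2 scale. With totals outside the mitochondrial genome, dendritic CA3 against CA1 gave 15, CA2 against CA1 13 and CA1 against DG 13, cell body CA3 against CA2 13, the layer difference 11 and genes low in DG cell bodies 7. With no filter, dendritic CA2 against CA1 gave 5 and genes low in DG dendrites 7. Fitted within 1 layer, dendritic CA2 against CA1 gave 5, cell body CA3 against CA2 18 and CA1 against DG 29, genes high in CA3 cell bodies 9 and low in DG cell bodies 19. Without mice 492 and 496 in CA1 dendrites, dendritic CA2 against CA1 gave 4, CA1 against DG 6 and genes low in DG dendrites 2.

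Leaving out each mouse in turn, or the CA2 and DG dendritic columns of mice 492 and 502, gave these ranges. The layer comparison in DG called 15 to 23. Among dendritic layers, CA3 against CA1 called 3 to 5, CA3 against CA2 2 to 6, CA3 against DG 5 to 21, CA2 against CA1 3 to 11, CA1 against DG 3 to 24 and CA2 against DG 1 to 14. Among cell bodies, CA3 against CA1 called 13 to 23, CA3 against CA2 3 to 9, CA2 against CA1 10 to 18 and CA1 against DG 10 to 18. Genes high in CA3 numbered 0 to 3 in dendrites and 1 to 5 in cell bodies, and genes low in DG 0 to 11 in dendrites and 5 to 10 in cell bodies. Without those columns CA2 and DG dendrites keep 1 library each, assumed to vary like the other groups. The causes were not tested. Without the mouse block, 22 members were called between CA3 and DG dendrites and 29 between layers, the same numbers as with the block, and members called for unequal change of transcripts between CA3 and DG dendrites were 2, where 1 was called with the block. Depth is unknown from the normalized values, and the spread rests on 3 mice.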
